A study of Mus musculus with 5 samples.

Results

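Genes of glycolysis and of the response to low oxygen were followed in whole embryos of C57BL6J mice, taken at gestation day 9.5. The group holds 37 gene symbols: 2 glucose transporters, 16 glycolytic enzymes, 3 regulatory kinases and 16 other hypoxia genes. A probe set that names that gene alone was found for 33 of the 37, out of 12393 such genes on the array. Gpi1, Eno1, Bnip3l and Ankrd37 had none, and each other gene was read from its probe set with the highest mean signal. Of the 33 genes, 30 passed the filter on dim signals and were tested among 7436 genes. Eno2, Adm and Car9 lay under the filter, which stood near a signal of 30.004.

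RNA of 3 Folr1+/+ (wild type) and 2 Folr1-/- (knockout) replicates was hybridised to 1 Affymetrix array each. Folr1 encodes a folate receptor. Folr1-/- embryos came from Folr1+/- parents, with the dams kept on a folate-supplemented diet before mating and through gestation. Genotypes were read by tail PCR. Decidua, chorion and amnion were taken off at dissection; removal of the yolk sac is not mentioned. The diet behind the Folr1+/+ embryos is not stated apart, and if it differed, genotype and diet cannot be told apart. The replicates are called biological, but the number of embryos behind an array is not stated, so p-values measure the spread between these arrays, which may be partly technical. The Folr1 probe set gave 57.05, 50.01 and 40.2 on the 3 Folr1+/+ arrays and 50.2 and 41.8 on the 2 Folr1-/- arrays and does not check the genotype, since the sources used here do not say which part of the gene is missing. All directions rest on the labels.

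Glycolysis splits glucose into pyruvate and yields ATP without oxygen, and lactate dehydrogenase turns pyruvate into lactate and restores the NAD+ that the pathway needs. When oxygen is low, the factor HIF-1, made of HIF1A and ARNT, escapes the prolyl hydroxylases of the EGLN family and activates many glycolytic genes together with genes for vessel growth, matrix synthesis and mitophagy. Embryos at the start of organ formation take up much glucose and release lactate.

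In the arrays labelled Folr1-/-, 11 of the 30 tested genes fell and 1 rose, at a limma adjusted p under 0.05. This is 36.7% lower and 3.33% higher, where 6.79% of all 7436 tested genes fell and 8.19% rose. The 1 gene that rose was Ldhb, the heart-type lactate dehydrogenase subunit, and the largest fall was that of Pdk1, a kinase that shuts off pyruvate dehydrogenase. The fallen genes were 6 of 13 tested glycolytic enzymes (Hk1, Hk2, Aldoa, Pgk1, Pkm and Ldha), 1 of 3 kinases (Pdk1) and 4 of 12 other hypoxia genes (Bnip3, Egln1, Ddit4 and Kdm3a). Neither glucose transporter passed. The signals of the groups did not overlap for 19 of the 30 genes, or 63.3%, against 46.7% of all tested genes. Of the 19, 2 were higher and 17 lower, where 22.5% of all tested genes were higher without overlap and 24.2% lower. With each array centred on its median the members gave 9 lower and 1 higher, and among all genes the share of changed genes that were higher moved from 54.7% to 69.3%.

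These counts rest on few arrays. Without Folr1-/- replicate 1 they were 5 lower and 1 higher, in a fit that called 369 genes, and without Folr1-/- replicate 2 they were 3 lower and 1 higher, in a fit that called 664 genes, in place of 1114. In such a fit the lone array is assumed to vary like the Folr1+/+ arrays. The arrays are of bulk RNA, in which fewer cells of a type and less RNA per cell cannot be told apart, and marker genes of yolk sac, blood, nerve and heart moved with the same labels, with values given at the end.

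**Figure D1:**
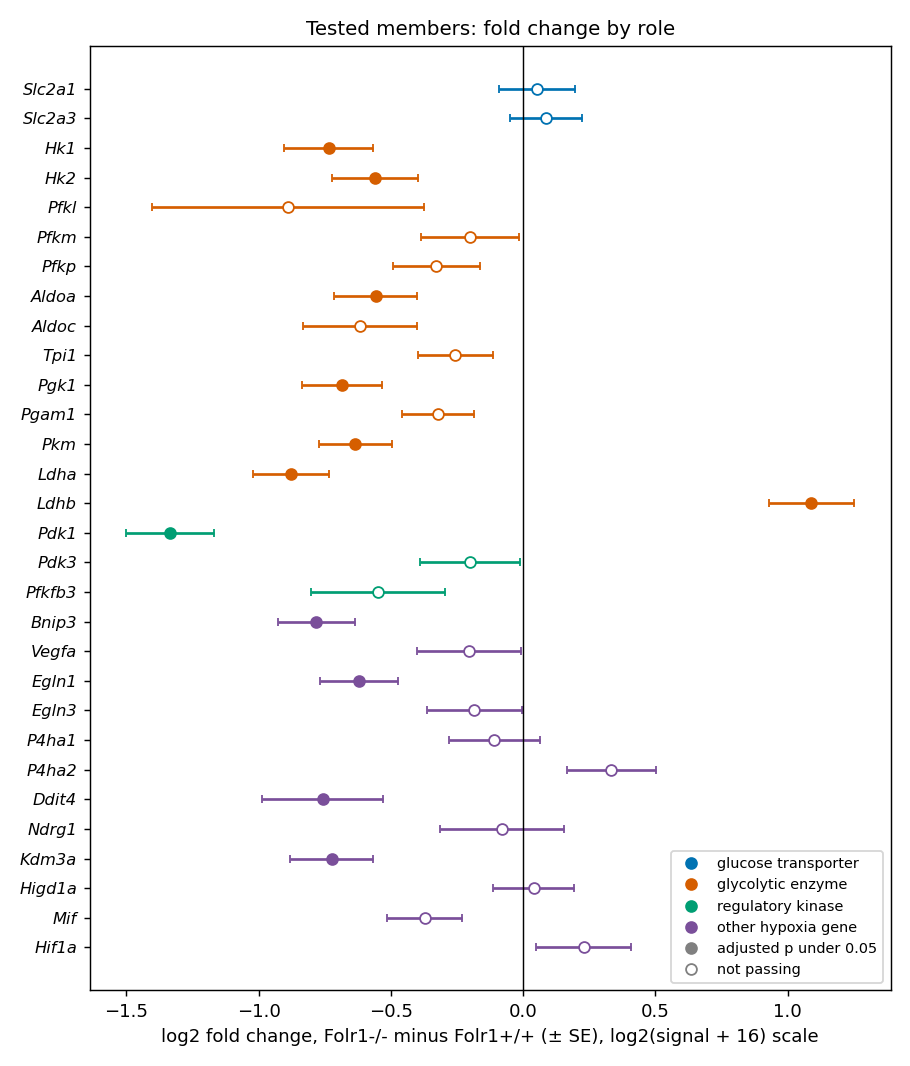
Log2 fold change (Folr1-/- minus Folr1+/+, on the log2(signal + 16) scale) of the 30 tested genes in order of role, with bars of 1 standard error; filled points passed a limma adjusted p of 0.05. Ldhb, at 1.09, is the only filled point right of 0, and Pdk1, at -1.34, lies farthest left.

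HIF-1 binds DNA at a short core, ACGTG or GCGTG, so promoter windows of the genes were searched for these letters. The windows reach from 250 bases before to 50 after the gene start and come from RefSeq (GRCm38.p6), where 34 of the 37 genes had at least 1. Both strands were read, and overlapping matches were counted apart, so that the palindrome CACGTG counts as 2. Of the 34 genes, 31 (91.2%) had either core in at least 1 window, against 70.8% of the tested genes with a window and 46.7% of all genes with one. All 11 genes that fell had a match, and so did 15 of the 16 tested genes with a window that did not pass (93.8%), so a match did not set the fallen genes apart. Windows are shown for Ldha and Ldhb, whose signals moved in opposite directions, for Pdk1 and Bnip3, which fell in every setting tried, and for Slc2a1, which did not pass. They are 300 bases long, written 5′ to 3′ along the gene, and capitals mark the matches.
Ldha (chr7:46845554-46845853, plus strand): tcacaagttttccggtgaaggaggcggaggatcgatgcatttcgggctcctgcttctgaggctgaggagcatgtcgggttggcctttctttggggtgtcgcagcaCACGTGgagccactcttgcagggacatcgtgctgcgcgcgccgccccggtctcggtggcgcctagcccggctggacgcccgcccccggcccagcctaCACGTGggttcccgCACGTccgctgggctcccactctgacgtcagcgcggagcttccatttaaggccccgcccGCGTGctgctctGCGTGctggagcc
Ldhb (chr6:142507908-142508207, minus strand): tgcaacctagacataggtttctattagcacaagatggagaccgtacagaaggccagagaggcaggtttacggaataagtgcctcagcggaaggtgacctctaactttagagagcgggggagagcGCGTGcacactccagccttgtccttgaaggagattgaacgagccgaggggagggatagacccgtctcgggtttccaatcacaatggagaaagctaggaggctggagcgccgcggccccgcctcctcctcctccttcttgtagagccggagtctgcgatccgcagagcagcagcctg
Pdk1 (chr2:71872974-71873273, plus strand): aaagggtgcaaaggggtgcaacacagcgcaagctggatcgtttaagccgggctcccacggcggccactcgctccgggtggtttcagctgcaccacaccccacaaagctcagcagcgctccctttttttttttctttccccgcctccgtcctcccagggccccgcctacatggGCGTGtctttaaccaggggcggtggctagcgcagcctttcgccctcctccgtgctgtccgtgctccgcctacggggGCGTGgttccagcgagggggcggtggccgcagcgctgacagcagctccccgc
Bnip3 (chr7:138909457-138909756, minus strand): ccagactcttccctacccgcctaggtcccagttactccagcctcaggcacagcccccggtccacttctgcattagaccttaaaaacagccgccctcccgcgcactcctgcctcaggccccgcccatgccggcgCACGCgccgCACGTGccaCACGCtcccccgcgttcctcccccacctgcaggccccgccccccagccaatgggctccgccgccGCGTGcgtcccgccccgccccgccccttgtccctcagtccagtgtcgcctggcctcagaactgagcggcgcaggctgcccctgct
Slc2a1 (chr4:119108495-119108794, plus strand): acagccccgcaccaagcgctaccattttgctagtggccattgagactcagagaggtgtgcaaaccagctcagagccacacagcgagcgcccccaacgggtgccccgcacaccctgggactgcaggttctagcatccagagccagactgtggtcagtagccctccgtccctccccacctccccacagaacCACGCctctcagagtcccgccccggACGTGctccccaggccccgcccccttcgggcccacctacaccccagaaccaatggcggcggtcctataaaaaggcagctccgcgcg
The Ldha window held 5 matches to ACGTG and 2 to GCGTG. That of Ldhb held 0 and 1, that of Pdk1 0 and 2, that of Bnip3 2 and 3, and that of Slc2a1 1 and 1. RefSeq gave Ldha and Pdk1 another window each, at a later start, with 0 and 2 matches for Ldha and 0 and 0 for Pdk1. A match shows only that the letters are there.

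The glucose transporters come first in the pathway. Slc2a1, the carrier that supplies most cells with basal glucose, had signals of 2594, 3013 and 2770.3 on the 3 Folr1+/+ arrays and 3126 and 2676 on the 2 Folr1-/- arrays. Slc2a3, a high-affinity carrier, had 5535, 6215 and 5485 on the 3 Folr1+/+ arrays and 5787 and 6410.5 on the 2 Folr1-/- arrays. This Slc2a3 probe set is of a kind that can bind related transcripts. So is its other bright probe set, which read 5133, 5908 and 5063 against 5176 and 6072. The groups overlapped for both genes, and the log2 fold changes were 0.05 ± 0.14 (SE) and 0.09 ± 0.14, with limma adjusted p-values of 0.836 and 0.715. Leaving out 1 array at a time, that of Slc2a1 ran from -0.06 to 0.16.

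Hexokinases trap glucose in the cell by phosphorylating it. Hk1, the form found in most tissues, had signals of 149, 166 and 159 on the 3 Folr1+/+ arrays and 94.4 and 83.03 on the 2 Folr1-/- arrays. Both Folr1-/- arrays lay under every Folr1+/+ array, and the gene fell by 0.73 on the log2 scale (SE 0.17, limma adjusted p = 0.0128). Hk2, an inducible form and a known HIF-1 target, had signals of 656, 579.5 and 488 on the 3 Folr1+/+ arrays and 372 and 391 on the 2 Folr1-/- arrays, again without overlap, and its fold change was -0.56 ± 0.16 (limma adjusted p = 0.0376). A second Hk1 probe set was dim, with a highest signal of 5.05, and with it in place of the first the call of Hk1 was lost (-0.09, limma adjusted p = 0.799).

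Phosphofructokinase commits the sugar to glycolysis, and none of its 3 subunit genes passed. Pfkl, the liver-type subunit, had signals of 719.9, 3215 and 2745 on the 3 Folr1+/+ arrays and 649 and 1523 on the 2 Folr1-/- arrays. Folr1+/+ replicate 1 and Folr1-/- replicate 1 were both low, so the spread within each group was wide and the fold change was -0.89 ± 0.51 (limma adjusted p = 0.271). Without Folr1+/+ replicate 1 it was -1.56, past the threshold (limma adjusted p = 0.00993). Leaving out Folr1+/+ replicate 2 gave -0.49, and leaving out Folr1-/- replicate 1 gave -0.28. Pfkm, the muscle-type subunit, had 196, 238 and 225 against 225 and 158 in the same order of arrays, with overlapping groups and a fold change of -0.20 ± 0.18. Pfkp, the platelet-type subunit, had 149, 153 and 141 against 113 and 116, which do not overlap, and a fold change of -0.33 ± 0.16 that did not pass (limma adjusted p = 0.203).

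Aldolase splits the 6-carbon sugar. Aldoa, the main form in embryos and muscle, had signals of 4997, 5766 and 4484 on the 3 Folr1+/+ arrays and 3815 and 3083 on the 2 Folr1-/- arrays. The groups did not overlap, and the fold change was -0.56 ± 0.16 (limma adjusted p = 0.0335). Its 4 probe sets are of a kind that can bind related transcripts, so its level is uncertain, but all 4 went the same way. Aldoc, the brain form, had signals of 70.8, 46.2 and 46.7 against 29.1 and 29.8 and a fold change of -0.62 ± 0.22, which did not pass (limma adjusted p = 0.0769). Tpi1, which interconverts the triose phosphates, had a fold change of -0.26 ± 0.14 and also did not pass, though its groups did not overlap (2625, 3113 and 3138 against 2523 and 2414). The probe set used is also of the kind that can bind related transcripts. Its other probe sets gave -0.18 and -0.07, and with the last the groups overlapped (1095, 1167 and 1118 against 1136 and 1009).

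The second part of the pathway, which pays back ATP, held 3 enzymes that passed the filter, in addition to Ldha and Ldhb. Pgk1, the first step that makes ATP, had signals of 8563, 10962 and 8487 on the 3 Folr1+/+ arrays and 5979.5 and 5563 on the 2 Folr1-/- arrays. Every Folr1-/- array was lower, and the gene fell by 0.68 on the log2 scale (SE 0.15, limma adjusted p = 0.0107). Pkm, pyruvate kinase, which makes ATP at the last step, had signals of 5991, 5237 and 5562 on the 3 Folr1+/+ arrays and 3838 and 3367 on the 2 Folr1-/- arrays and fell by 0.63 (SE 0.14, limma adjusted p = 0.00994). Pgam1, the mutase between them, had signals of 2998, 3172 and 2731 against 2387 and 2343, which do not overlap, and a fold change of -0.32 ± 0.14 that did not pass (limma adjusted p = 0.137). Eno2, the neuronal enolase, lay under the filter with signals of 24.5, 8.18 and 14.02 against 6.24 and 7.05.

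Pgk1 and Pdk3 lie on the X chromosome, and the arrays differ in sex-linked transcripts. The Xist transcript, which coats the inactive X, read 29.4, 35.7 and 24.95 on the 3 Folr1+/+ arrays and 419 and 770.4 on the 2 Folr1-/- arrays. The Y-linked Eif2s3y had 300.3, 345 and 372 against 104 and 3.13, and Kdm5d, also on the Y, had 120.5, 89.5 and 107 against 25.2 and 0.796. Folr1-/- replicate 1 thus read both Xist and Y-linked transcripts, and the reason was not tested. The sex-linked difference follows the group labels, so for every gene it cannot be told apart from genotype. Its part in the X-linked genes was not tested. Pdk3, another pyruvate dehydrogenase kinase, had signals of 186, 132 and 189 against 146 and 141, with overlapping groups and a fold change of -0.20 ± 0.19.

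The lactate dehydrogenase subunits moved in opposite directions. Ldha, the muscle-type subunit and a classical HIF-1 target, had signals of 8131, 10102 and 8349 on the 3 Folr1+/+ arrays and 4905 and 4686 on the 2 Folr1-/- arrays. It fell by 0.88 on the log2 scale (SE 0.14, limma adjusted p = 0.00187), from 8860.5 ± 1080.4 (SD, n = 3) to 4795 ± 155 (SD, n = 2). Ldhb, the heart-type subunit that favours the use of lactate, had signals of 483, 592 and 584 on the 3 Folr1+/+ arrays and 1335 and 1062 on the 2 Folr1-/- arrays. It rose by 1.09 ± 0.16 (limma adjusted p = 0.000914), from 553 ± 60.8 (SD, n = 3) to 1199 ± 193 (SD, n = 2). Both calls held in each of 16 other settings, and all 4 Ldhb probe sets were higher, by 1.03 to 1.22, though 2 of them, with the one used, are of the kind that can bind related transcripts.

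Taken within each array, the log2 ratio of Ldhb to Ldha lay within -0.09 to 0.16 of its Folr1+/+ mean in the Folr1+/+ arrays and 2.10 and 1.84 above it in the Folr1-/- arrays. This is a 3.91-fold shift of the ratio. An exact permutation test gave a two-sided p of 0.1, the smallest that 3 arrays against 2 can reach, and 0.3 after Benjamini-Hochberg adjustment over 9 pairs of related genes. Shifts without overlap were also seen for Pdk3 against Pdk1 (1.14) and Egln3 against Egln1 (0.44), with the same p. The groups were also apart, narrowly, for P4ha2 against P4ha1 (0.44), with an exact two-sided p of 0.2. In the other 5 pairs the groups overlapped and the exact two-sided p was 0.4 or more. These p-values do not show that those pairs moved alike.

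**Figure D2:**
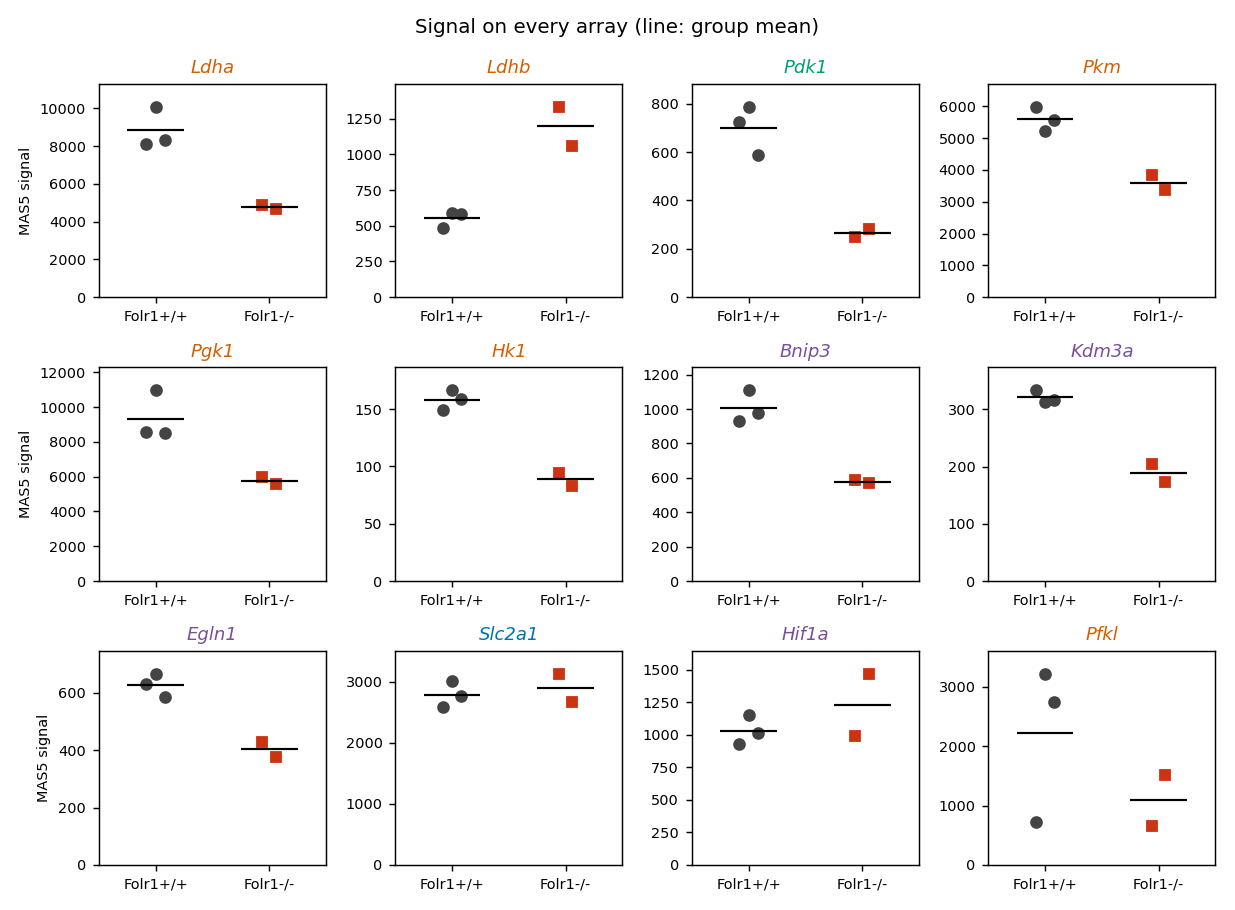
MAS5 signal (linear, from 0) of 12 genes on every array, with circles for the 3 Folr1+/+ arrays, squares for the 2 Folr1-/- arrays and a line at each group mean. The groups are apart for the first 9 genes, and they overlap for Slc2a1, Hif1a and Pfkl, where Folr1+/+ replicate 1 lies at 719.9.

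Of the regulatory kinases, Pdk1 showed the largest change of all tested members. Its signals were 725, 789 and 589 on the 3 Folr1+/+ arrays and 251 and 282 on the 2 Folr1-/- arrays, and it fell by 1.34 on the log2 scale (SE 0.17, limma adjusted p = 0.000294), which is a 2.52-fold lower level on the log2(signal + 16) scale. Both of its probe sets fell, the other by 0.98. Pfkfb3, which makes an activator of phosphofructokinase, had signals of 59.04, 40.6 and 34.00 on the 3 Folr1+/+ arrays and 16.98 and 34.4 on the 2 Folr1-/- arrays. Its groups overlapped, the fold change was -0.55 ± 0.25 (limma adjusted p = 0.17), and it was -0.85 in Folr1-/- replicate 1 and -0.24 in replicate 2.

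Among the other hypoxia genes, 4 of 12 tested fell (33.3%) and 0 rose at a limma adjusted p under 0.05, with 0 higher at an unadjusted p under 0.05 as well. Of all 7436 tested genes, 6.79% fell and 8.19% rose at the adjusted threshold, and 1112 were higher at an unadjusted limma p under 0.05. Bnip3, a mitochondrial protein that marks mitochondria for removal, had signals of 931, 1109 and 977 on the 3 Folr1+/+ arrays and 585 and 568 on the 2 Folr1-/- arrays. It fell by 0.78 on the log2 scale (SE 0.15, limma adjusted p = 0.00392) without overlap. Kdm3a, a histone H3 lysine demethylase induced by low oxygen, had signals of 333, 313 and 317 on the 3 Folr1+/+ arrays and 204 and 174 on the 2 Folr1-/- arrays and fell by 0.72 (SE 0.16, limma adjusted p = 0.00919). Egln1, the main oxygen sensor that tags HIF1A for degradation and is itself a HIF-1 target, had signals of 631, 665 and 586 on the 3 Folr1+/+ arrays and 429.99 and 376 on the 2 Folr1-/- arrays and fell by 0.62 (SE 0.15, limma adjusted p = 0.0158). Ddit4, an inhibitor of mTORC1 that is also induced by other stresses, had signals of 174, 311 and 252 on the 3 Folr1+/+ arrays and 115 and 158 on the 2 Folr1-/- arrays. Its fold change was -0.76 ± 0.23, with a limma adjusted p of 0.044, and -0.96 and -0.55 in the Folr1-/- replicates taken apart.

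Of the other members of this list, Vegfa, the growth factor for vessels, had signals of 110.1, 80.3 and 118 on the 3 Folr1+/+ arrays and 88.4 and 84.2 on the 2 Folr1-/- arrays, with overlapping groups (fold change -0.20 ± 0.20). Adm, a vasodilator peptide, and Car9, a carbonic anhydrase used as a hypoxia marker, lay under the filter and were not tested, with signals of 5.45, 5.73 and 2.18 against 10.6 and 8.58 for Adm and 14.7, 9.95 and 13.5 against 8.43 and 8.13 for Car9. Ndrg1, a stress-induced gene, had a fold change of -0.08 ± 0.24, and Higd1a, a mitochondrial protein, 0.04 ± 0.15. The groups overlapped for both. Mif, a cytokine, had signals of 1983, 2181 and 2294 against 1559 and 1759, which do not overlap, and a fold change of -0.37 ± 0.14 (limma adjusted p = 0.0988).

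P4ha1 and P4ha2 encode the catalytic subunits of the collagen prolyl hydroxylases. P4ha2 had signals of 109, 131 and 123 on the 3 Folr1+/+ arrays and 151 and 162 on the 2 Folr1-/- arrays, the only other tested member besides Ldhb with both Folr1-/- arrays above every Folr1+/+ array. Its fold change of 0.33 ± 0.17 did not pass (limma adjusted p = 0.21), and P4ha1 had 338, 337 and 267 against 320.4 and 259, with overlapping groups and a fold change of -0.11 ± 0.17. Egln3, a HIF prolyl hydroxylase that HIF-1 induces strongly, had 83.7, 89.2 and 76.98 against 72.95 and 69.6 and a fold change of -0.18 ± 0.18 (limma adjusted p = 0.525). A second Egln3 probe set, with every signal under that of the filter, had signals of 26.7, 18.0 and 19.7 against 3.22 and 2.39 and passed in its place (-0.99, limma adjusted p = 0.0161).

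Hif1a encodes the oxygen-regulated subunit of HIF-1, which is controlled mainly at the protein level. Its signals were 927, 1153 and 1010.4 on the 3 Folr1+/+ arrays and 992 and 1465 on the 2 Folr1-/- arrays. Folr1-/- replicate 1 lay within the Folr1+/+ range and replicate 2 above it, and the fold change was 0.23 ± 0.18 (limma adjusted p = 0.428). The arrays hold no value for the protein.

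Set against each other as lists, the 13 tested glycolytic enzymes had a median log2 fold change of -0.56, with 12 below 0 and Ldhb above it, and the 12 tested other hypoxia genes had a median of -0.19, with 9 below 0. The median of all tested genes was -0.02. On the Folr1+/+ arrays the enzyme median lay between -0.08 and 0.10 of the Folr1+/+ mean, and on the Folr1-/- arrays it was -0.54 and -0.53. For the other hypoxia genes it lay between -0.11 and 0.10 and was -0.17 and -0.26. When the probe sets of a gene were averaged, the medians were -0.41 and -0.33, and with the second probe set, where there is one, -0.32 and -0.36. Of 19 members with a second probe set, 7 had all its signals under the filter's signal, 3 of them enzymes (Hk1, Pfkp and Aldoc) and 3 other hypoxia genes (Vegfa, Egln3 and P4ha1), so these values rest partly on dim probe sets. The difference between the lists was not tested, and many glycolytic enzymes are HIF-1 targets too.

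**Figure D3:**
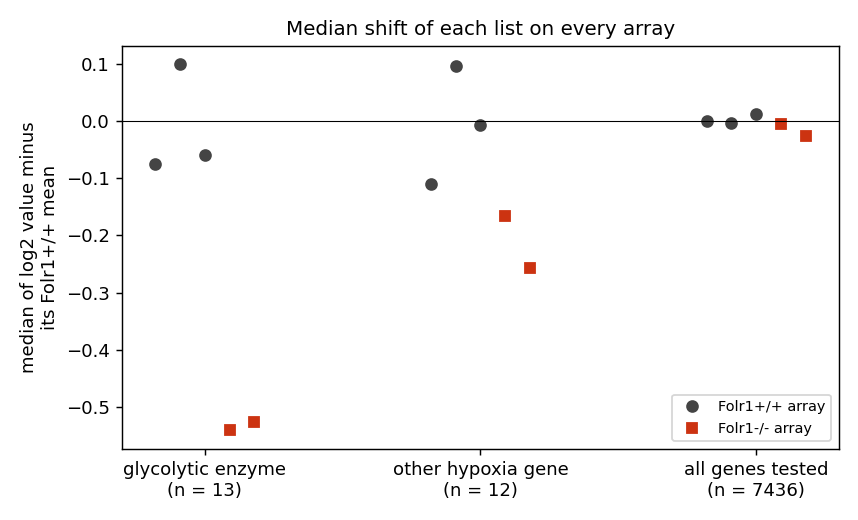
Median over the tested genes of the log2 value minus its Folr1+/+ mean, for each array (circles Folr1+/+, squares Folr1-/-), in glycolytic enzymes, other hypoxia genes and all tested genes. The Folr1-/- squares of the enzymes lie at -0.54 and -0.53 and those of the other hypoxia genes at -0.17 and -0.26.

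The Folr1-/- replicates were also set apart, each against the Folr1+/+ mean. In 24 of 30 genes both lay on the same side of it, as in 5805 of 7436 tested genes. Of the 6 exceptions, Hif1a had -0.05 and 0.51 in replicates 1 and 2, and Pfkm 0.03 and -0.44. The others were Slc2a1, P4ha1, Ndrg1 and Higd1a. The 4 genes called in every setting had 1.25 and 0.93 (Ldhb), -1.42 and -1.26 (Pdk1), -0.84 and -0.91 (Ldha), and -0.76 and -0.80 (Bnip3). A low limma p favours genes with little spread within a group, so the closeness of these values is no separate support. Pfkl, which did not pass, had a fold change of -0.89, and its replicates lay at -1.49 and -0.28.

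**Figure D4:**
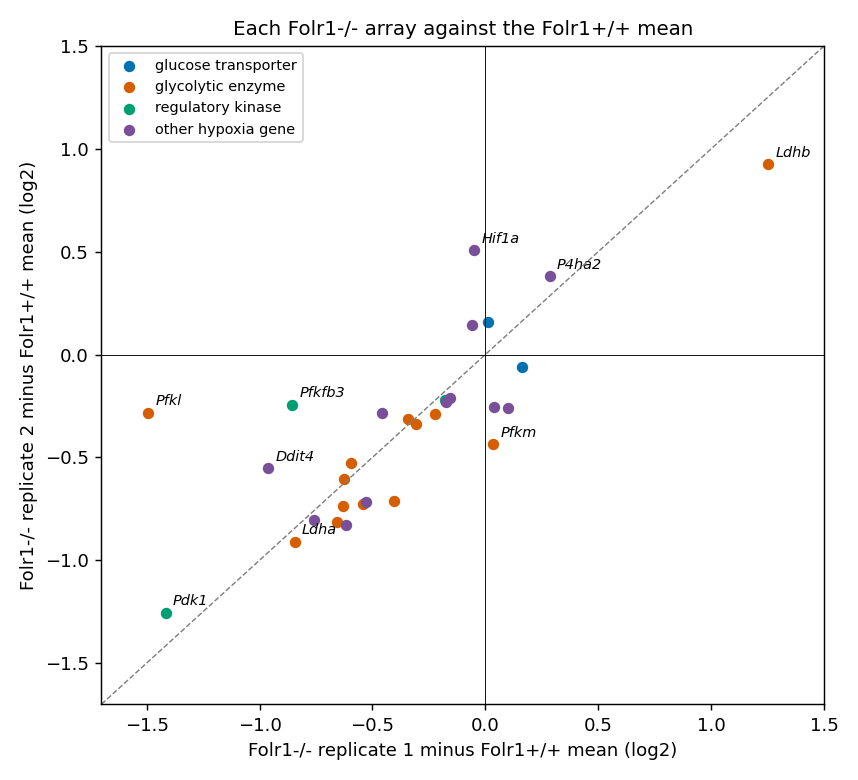
Log2 difference of Folr1-/- replicate 1 (horizontal) and replicate 2 (vertical) from the Folr1+/+ mean for the 30 tested genes, coloured by role, with equality dashed. Most points lie near the dashed line at the lower left, and Pfkl, at -1.49 and -0.28, lies far from it.

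Ldha, Ldhb, Pdk1 and Bnip3 kept their calls whichever array was left out. Without Folr1-/- replicate 2 the other 8 were lost, with fold changes of -0.66 for Hk1, -0.59 for Hk2, -0.40 for Aldoa, -0.63 for Pgk1, -0.54 for Pkm, -0.53 for Egln1, -0.96 for Ddit4 and -0.62 for Kdm3a. Without Folr1-/- replicate 1, Pkm (-0.73) and Kdm3a (-0.83) kept theirs, and Hk1 (-0.81), Hk2 (-0.53), Aldoa (-0.71), Pgk1 (-0.74), Egln1 (-0.71) and Ddit4 (-0.55) did not. Among Folr1+/+ arrays, Aldoa was lost without any 1 of the 3 (-0.57, -0.46 and -0.64). Hk2 was lost without replicate 1 (-0.46) or 2 (-0.55), Ddit4 without replicate 2 (-0.58) or 3 (-0.72), and Hk1 without replicate 3 (-0.73). The limma adjusted p of a lost call ran from 0.0506 to 0.324. No fold change of the 12 changed sign when an array was left out.

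**Figure D5:**
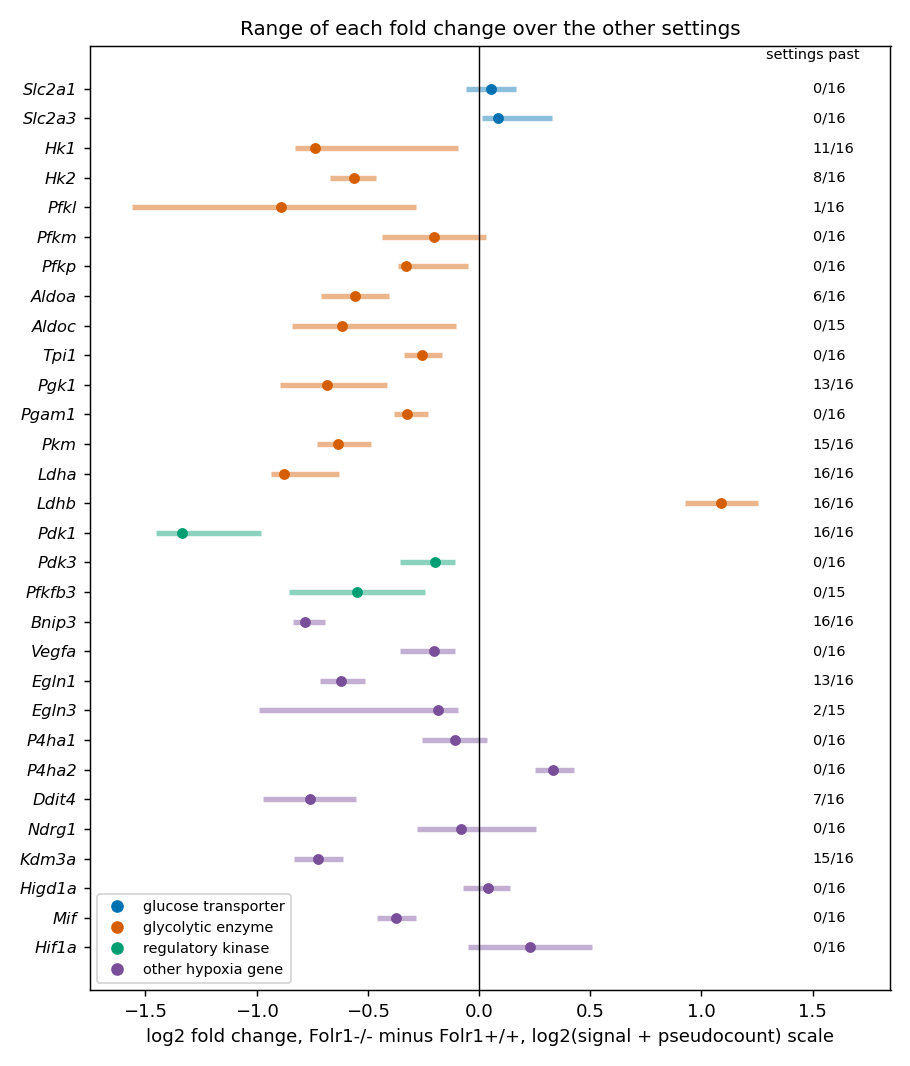
Range of the log2 fold change of each tested gene over the other settings (bar), its value as reported (point), and, at the right, in how many of those settings it passed an adjusted p of 0.05. Ldha, Ldhb, Pdk1 and Bnip3 passed in 16 of 16, and Aldoa in 6.

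Other genes of the pathway were taken from lists. Of the remaining glycolytic enzymes 4 were tested, and 1 rose: Hkdc1, a hexokinase-like gene, with signals of 56.1, 34.05 and 48.2 on the 3 Folr1+/+ arrays and 158 and 136 on the 2 Folr1-/- arrays (fold change 1.41 ± 0.21, limma adjusted p = 0.000848). Gapdh had no probe set that names it alone. Of the further glucose and lactate carriers 4 were tested, and 2 rose. Slc16a1, the carrier of lactate and pyruvate, had signals of 1102, 641 and 633 on the 3 Folr1+/+ arrays and 1966 and 2034 on the 2 Folr1-/- arrays (fold change 1.37 ± 0.22, limma adjusted p = 0.00139), and Slc2a2, a glucose carrier of liver and gut, had 96.2, 43.4 and 93.9 against 551 and 528 (fold change 2.62 ± 0.25). Pyruvate oxidation gave 0 limma calls among 5 tested genes, and 0 at an unadjusted p under 0.05. Pdha1, the pyruvate dehydrogenase subunit that PDK1 phosphorylates, had a fold change of -0.01 ± 0.15. The pentose phosphate pathway gave 0 limma calls among 6, likewise with 0 at an unadjusted p under 0.05, and the single tested gene of phosphofructokinase-2 and gluconeogenesis, Pck2, did not pass. Over all 7436 tested genes 8.19% rose and 6.79% fell in the limma fit, and 2227 had an unadjusted limma p under 0.05. Lists of 5 or 6 genes with 0 calls therefore do not show that these pathways were unchanged. Pdha1, Pck2 and Arnt were singled out after their values were seen.

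In the limma fit HIF regulators gave 0 higher and 1 lower of 6 tested, the coactivator gene Crebbp (-0.65 ± 0.18, limma adjusted p = 0.0279). Arnt, which encodes the partner of HIF1A, lay under the filter with signals of 7.49, 26.5 and 26.7 against 17.4 and 14.5. Of further hypoxia targets 3 of 16 tested fell and 0 rose. Tfrc, the transferrin receptor, had signals of 1617, 1749 and 1347 on the 3 Folr1+/+ arrays and 721 and 824 on the 2 Folr1-/- arrays and fell by 1.00 on the log2 scale (limma adjusted p = 0.00128). Ak4, a mitochondrial adenylate kinase, fell by 0.92, and Stc2, a secreted glycoprotein, by 0.84. Those 3 falls make 18.8% of the list, and the 1 fall among HIF regulators 16.7% of theirs, against 6.79% of all tested genes.

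Cell type markers differed with the same labels, and their part in these results was not tested. Visceral endoderm and yolk sac markers rose in 15 of 15 tested, among them Apoa4, Apom and Ctsh, and their summed signal was 3135 to 4207 in the Folr1+/+ arrays and 19369 and 19733 in the Folr1-/- arrays. Primitive red cell markers fell in 6 of 8 tested, with sums of 5384 to 6378 against 232 and 634, as did neural progenitor markers in 6 of 8 (1129 to 1223 against 319.9 and 389). Heart muscle markers fell in 6 of 10 (6981 to 7453 against 4389.6 and 4829). Endothelial markers gave 0 limma calls of 7 tested, out of 10 on the array (1154 to 1628 against 1251 and 1335). Tek, which was higher, was the 1 gene with an unadjusted limma p under 0.05. Emcn, under the filter, read 39.6, 50.9 and 34.5 against 14.9 and 9.64, lower without overlap. It passed in the fit with no filter (limma adjusted p = 0.0374). Pecam1 and Tie1 were also under the filter, with overlapping groups. Of 6 trophoblast and decidua markers on the array only 2, Plac1 and Prl8a2, were tested, and they rose. The sums over the 6 were 160.9 to 187 against 466 and 372. Prl8a2 read 15.3, 13.6 and 23.2 against 143 and 34.6. It passed the filter only through the Folr1-/- arrays, so its rise is no separate support. Markers of neural tissue, heart and blood were present in the Folr1+/+ arrays, as the label of whole embryo implies. On the Folr1-/- arrays some, for example Zic1 (9.4 and 7.7), Slc4a1 (11.5 and 7.98) and Nppa (15.6 and 12.8), read under the filter's signal. Others, for example Sox2 (73.5 and 117), Ank1 (57.3 and 37.5) and Tnnt2 (825 and 807), read above it there. Whether the label of whole embryo holds for the Folr1-/- arrays was not tested. Hbb-y, an embryonic globin, had 3299, 4339 and 3717 against 28.4 and 358. The Actb 3′/5′ ratio, a measure of RNA length, was 21.1 to 39.5 in the Folr1+/+ arrays and 30.5 and 22.8 in the Folr1-/- arrays. That of Gapdh was 67.2 to 104 in the Folr1+/+ arrays and 78.1 and 73.1 in the Folr1-/- arrays. The ranges overlap for both, but on every array the 3′ control read far above the 5′ control.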

How the data were processed

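The values are signal intensities that the authors made with MAS5, per the submitters' processing notes, whose version those notes leave out, and deposited on a linear scale, scaled so that the mean after trimming 2% at each end is 150.06 or 150.07 on every array. RNA was amplified in 2 rounds before labelling, per the labels' protocols. Detection calls were not used here. Of 22690 probe sets, 20380 name 1 gene in the platform annotation, 691 several and 1555 none, and 64 are controls. Each of 12393 genes was read from its brightest probe set by mean log2(signal + 16). Genes under the 40th percentile of that mean were left out. limma 3.58.1 (R 4.3.3; lmFit, eBayes with an intensity trend) compared 2 Folr1-/- with 3 Folr1+/+ arrays, with Benjamini-Hochberg adjustment over 7436 genes and a threshold of 0.05. Fold changes are Folr1-/- minus Folr1+/+ on the log2(signal + 16) scale and understate those of dim genes. The number of arrays limits the precision (3 residual degrees of freedom). The code was tested on simulated data. All members could be named, with up to 4 called genes of a pathway list and 3 of a marker list, taken by size of change. The markers Sox2, Slc4a1, Ank1, Tnnt2, Fga, Fgb, Tek, Emcn, Pecam1 and Tie1 fell outside that rule. They were named after their values were seen. The members and lists were chosen with earlier results of these data known. Replicate numbers were not used to pair the arrays in this fit. Deviations from the group means correlated by 0.02 (number 1) and -0.06 (number 2). With 2 Folr1-/- arrays the deviations mirror each other, so these correlations cannot decide whether the arrays were paired.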

Additional observations from a re-analysis of the deposited data

How the results depend on the processing

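The 16 other settings changed the pseudocount (1 or 64), the filter, the scaling, the choice of probe set, the intensity trend or array weights, left out 1 array, or added the replicate number as a block. Ldhb was the 1 member higher in each of them. The 11 lower members became 7 with no filter and 7 with the second probe set, and the 6 lower enzymes became 3 in each of these. With the second probe set Aldoa, Ddit4, Egln1, Hk1 and Hk2 lost their calls and Egln3 gained a call. Of these, Hk1 and Egln3 are among the 7 of 19 members whose second probe set had all signals under the filter's signal. Hk2 and Ddit4 had a single probe set. With no filter more genes share the adjustment, and standard errors changed too, up for Pgk1 (0.15 to 0.18) and down for Hk1 (0.17 to 0.16). The cause of the lost calls was not tested. With the second probe set 625 genes in all passed, in place of 1114. The enzyme median of -0.56 was -0.47 with median centring, -0.42 with quantile normalization, -0.41 with the mean of probe sets and -0.32 with the second probe set. That of the other hypoxia genes, -0.19, was -0.33 with the mean of probe sets and -0.36 with the second probe set. The cause of these shifts in the medians was not tested. Leaving out 1 array gave 3 to 10 lower members, 1 to 5 lower enzymes, 1 to 4 lower other hypoxia genes, 369 to 1007 genes in all, and medians of -0.64 to -0.46 for the enzymes and -0.26 to -0.17 for the other hypoxia genes. With the replicate block there were 11 lower members and 1 higher, and 899 genes in all. Of the 12 called members 4 passed in each setting and 0 changed sign, and of the 18 others 2 passed in at least 1 setting (Pfkl and Egln3). Dim genes are limited by background, which could not be judged by probe set.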

Other observations

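Several members were measured by more than 1 probe set. Of the 12 called members 6 had several, and all probe sets of these 6 went in the direction reported, though the second of Hk1 was under the filter's signal and changed by only -0.09. The low Pfkl signal of Folr1+/+ replicate 1 and Folr1-/- replicate 1 was seen with both of its probe sets. The second gave 397, 2251 and 2055 on the Folr1+/+ arrays and 381 and 957 on the Folr1-/- arrays. The second Pgk1 probe set gave 5641, 9037 and 5944 against 3378 and 4202.

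The Hif1a probe sets above the filter's signal differed in which Folr1-/- array was high. One of them had 94.1, 187 and 162 on the Folr1+/+ arrays and 326 and 147 on the Folr1-/- arrays, so that Folr1-/- replicate 1 was the high one, while with the brightest probe set it was replicate 2. All 3 of these probe sets had a log2 difference above 0, at 0.23, 0.18 and 0.58.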
